A study of Mus musculus with 52 samples.

Results

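The comparison described here is that of the spleen of healthy female C57BL/6 mice at 6 months with the spleen of healthy female C57BL/6 mice at 3 months. Its members were chosen by their titles alone and are 4 libraries, 2 of 6 months and 2 of 3 months, out of 52 in the series. C57BL/6 is a common inbred strain, and these unmanipulated animals served as the age-matched controls of NZB/W-F1 mice, female hybrids of New Zealand Black and New Zealand White parents that develop a lupus-like disease. Spleens of C57BL/6 at 1 month (3 libraries) and of NZB/W-F1 at 6, 3 and 1 months (3 libraries each) are used beside them, with C57BL/6 kidney and brain. The animals were perfused with phosphate-buffered saline before the organs were taken. The design text gives 3 animals a group, and 2 spleen libraries of each of the ages compared were analysed here, so p-values rest on the spread between very few animals.

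The spleen filters blood and hosts immune responses. Its white pulp holds B and T lymphocytes, and its red pulp holds macrophages that break down worn red cells and recover their iron, along sinuses lined by endothelium. Plasma cells, which secrete antibody, lodge in the red pulp, and the mouse spleen also keeps sites where red cells, platelets and granulocytes are made. B cells first carry IgM and IgD, and switch to IgG, IgA or IgE as they respond to antigen. Whole-organ RNA gives the sum of these compartments, and fewer cells of a type and less RNA per cell cannot be told apart.

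RNA-seq levels are given in CPM, the reads of a gene scaled to library size and to the authors' normalization factor, as deposited. The 6-month libraries held 9083049 and 5696124 reads in genes, and the 3-month libraries 7223063 and 19418394. A floor of 3 reads stood at 0.326 and 0.501 CPM in the 6-month libraries, against 0.441 and 0.154 CPM in the 3-month libraries. Genes marking B cells (16 of 16 listed), T cells (18 of 18), red pulp macrophages (20 of 20) and red cell precursors (37 of 40) passed the filter on low values. Some libraries stood apart. Reads of the measured genes of the mitochondrial genome made up 8.61% and 5.09% of the 3-month libraries, outside the 1.23 to 3.57% of the other 14 spleen libraries. Pancreatic enzyme genes summed to 195532 CPM in NZB/W-F1 replicate 2 of 3 months, 49774 CPM in C57BL/6 replicate 1 of 1 month and 4748 CPM in NZB/W-F1 replicate 3 of 6 months, while the 6-month libraries had 51.2 and 44.6 CPM, against 16.6 and 31.6 CPM in the 3-month libraries. The labels give no batch or date. As deposited, the columns of the 6-month C57BL/6 and the 6- and 1-month NZB/W-F1 spleens are named in another style than the rest. Whether this marks a batch is not stated, and age and any batch cannot be told apart.

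Between these ages 117 of 15122 genes passed limma's test at an adjusted p of 0.05 (0.774%), and nearly all were higher at 6 months: 115 rose (0.76%) and 2 fell (0.0132%). Their log2 fold changes, 6 minus 3 months, spanned 0.93 to 5.85 among the risers, with a median of 2.32, while the median over all genes was -0.01. Of the 115 risers 21 belonged to a gene list and 94 to none. Those on lists were led by genes of developing neutrophils, with switched antibody genes, red pulp macrophage genes and basophil genes beside them. At an unadjusted p under 0.05, 1726 genes were higher (11.4%) and 1231 lower (8.14%). The quasi-likelihood test of edgeR on the recovered reads called 23 of the same genes higher (0.152%) and 0 lower, with 2899 (19.2%) at an unadjusted p under 0.05. The number of calls changed with the libraries fitted. Without 6-month replicate 2 there was 1 call, Ighv5-9-1, which was none of the 117. Without 3-month replicate 1 there were 0, with 1566 at an unadjusted p under 0.05. Without 6-month replicate 1 there were 303 higher and 15 lower, and without 3-month replicate 2 there were 42 and 1. With only the 4 compared libraries fitted 0 genes passed, with 3538 at an unadjusted p under 0.05. With only the 7 C57BL/6 libraries 1 passed, Ighg2b. With the 3 libraries rich in pancreatic genes left out, none of them of the compared groups, 0 passed, with 3044 at an unadjusted p under 0.05. The fold changes themselves do not depend on those 3 libraries. All 117 kept their sign in each of these fits.

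**Figure D1:**
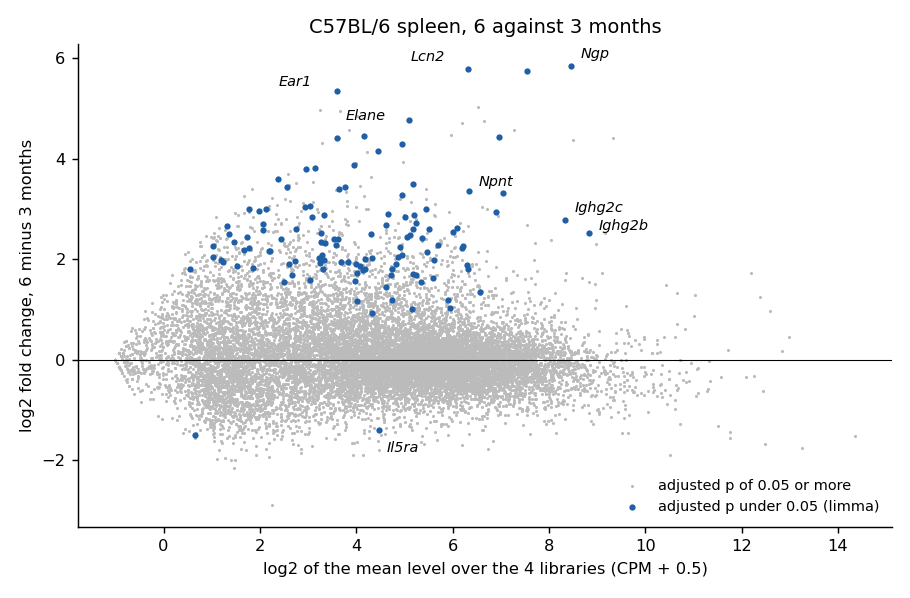
Each point is 1 of 15122 genes in C57BL/6 spleen, with the log2 of its mean level over the 4 libraries (CPM + 0.5) on the x axis and the log2 fold change, 6 minus 3 months, on the y axis. The genes that passed limma's threshold, in blue, lie above 0 in 115 cases and below 0 in 2, with Ngp highest at 5.85 and Il5ra at -1.39.

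Antibody genes of the switched IgG2 classes had the smallest p-values of all genes. Ighg2b (ENSMUSG00000076613, chromosome 12, 113302965 to 113307933, minus strand, GRCm38), the constant region of IgG2b heavy chains, stood at 719 and 823 CPM in the 6-month spleens, against 119.7 and 147 CPM in the 3-month spleens. At 1 month it had been at 19.6, 18.2 and 17.5 CPM, so that the 3 ages did not overlap and each was higher than the one before. Its log2 fold change from 3 to 6 months was 2.53 (SE 0.28, adjusted p = 0.0061 by limma). Ighg2c (ENSMUSG00000076612, chromosome 12, 113285325 to 113288932, minus strand), that of IgG2c, the class this strain uses in antiviral and inflammatory responses, stood at 502 and 605 CPM in the 6-month spleens, against 51.4 and 122 CPM in the 3-month spleens. At 1 month its 3 libraries lay between 7.67 and 8.34 CPM, and the change from 3 to 6 months was 2.79 (SE 0.39, adjusted p = 0.028 by limma). These were the 2 genes called among 12 of the constant regions. Neither passed without 6-month replicate 2 (limma adjusted p = 0.1 for Ighg2b and 0.479 for Ighg2c) or without 3-month replicate 1 (adjusted p = 0.0799 and 0.212), while their log2 fold changes stayed within 2.17 and 3.41. With the 3 libraries rich in pancreatic genes left out, adjusted p was 0.0675 for Ighg2b and 0.0706 for Ighg2c by limma.

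Other constant regions differed in direction and did not pass. Of the 12 genes 4 were higher and 4 lower at an unadjusted p under 0.05, with a median log2 fold change of 1.12. Ighg3 of IgG3 was at 235 and 237 CPM in the 6-month spleens, against 79.5 and 59.3 CPM in the 3-month spleens (limma adjusted p = 0.2). Igha of IgA, the class of mucosal surfaces, was at 2982 and 2896 CPM at 6 months, against 984 and 1458 CPM at 3 months and 88.5 to 119 CPM at 1 month (adjusted p = 0.33). The gamma genes Ighg1, Ighg2b, Ighg2c and Ighg3 together came to 1673 and 1758 CPM at 6 months, against 282 and 436 CPM at 3 months and 43.4 to 52.5 CPM at 1 month. In both 6-month libraries the sum was above that of every younger C57BL/6 library. Ighg2b and Ighg2c, the 2 genes called, made up most of it at 6 months, so this adds no separate result. The 4 lower were Ighd of IgD, Ighe of IgE and the lambda light chain genes Iglc2 and Iglc3. Ighd, carried by naive B cells, was at 530 and 475 CPM at 6 months, against 1388 and 827 CPM at 3 months (log2 fold change -1.09, adjusted p = 0.13). Ighe, near the floor, was at 0.651 and 0.167 CPM at 6 months, against 5.73 and 0.721 CPM at 3 months (-1.65, adjusted p = 0.21). Iglc2 and Iglc3 had changes of -1.10 and -1.40 (adjusted p = 0.15 and 0.087), while Igkc of the kappa light chain was at 5307 and 9946 CPM, against 3401 and 2711 CPM (1.26, adjusted p = 0.15). Ighm of IgM did not separate the ages, with 4099 and 12933 CPM at 6 months, against 4369 and 3133 CPM at 3 months. Nor did Ighg1 of IgG1, with 217 and 91.9 CPM against 31 and 107 CPM.

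Variable segments encode the part of an antibody that binds antigen. Of 105 heavy chain segments 7 rose and 0 fell, and 56 were higher and 0 lower at an unadjusted p under 0.05, with a median log2 fold change of 1.61. They summed to 1054 and 2408 CPM at 6 months, against 282 and 418 CPM at 3 months and 261 to 449 CPM at 1 month. Ighv1-82 was at 34.1 and 77.9 CPM in the 6-month spleens, against 8.96 and 9.21 CPM in the 3-month spleens (log2 fold change 2.44, limma adjusted p = 0.039). The other 6 were Ighv1-26, Ighv1-75, Ighv5-17, Ighv1-50, Ighv1-61 and Ighv9-3, with log2 fold changes of 1.90 to 2.54. Segments of a family are close copies: 74.77% of the 31-base words of Ighv1-26 occur in another gene, and 63.56%, 69.17% and 72.59% of those of Ighv1-75, Ighv1-50 and Ighv1-61, so the split of reads among them is uncertain. None of the 7 calls held without 6-month replicate 2 or without 3-month replicate 1. Of 97 kappa light chain segments 0 were called, with 37 higher and 0 lower at an unadjusted p under 0.05 and a median of 1.16. Of 3 lambda segments 0 were called, with 1 higher and 0 lower and a median of 0.22.

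Plasma cell genes were measured beside these. Of 15 on the list 0 were called, with 5 higher and 0 lower at an unadjusted p under 0.05 and a median of 0.33. Jchain, which joins IgA and IgM units into multimers, was at 1930.3 and 2659 CPM in the 6-month spleens, against 662 and 1223 CPM in the 3-month spleens (log2 fold change 1.33, limma adjusted p = 0.13). Prdm1, the transcription factor BLIMP-1 that drives plasma cell formation, was at 13.1 and 26.4 CPM, against 6.91 and 9.37 CPM. Both stood above the 3-month libraries, as 27.8% of all genes did, without passing. Mzb1, an antibody-folding chaperone partner, was at 149.6 and 152 CPM at 6 months, against 193 and 192 CPM at 3 months, so the list did not move as one.

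**Figure D2:**
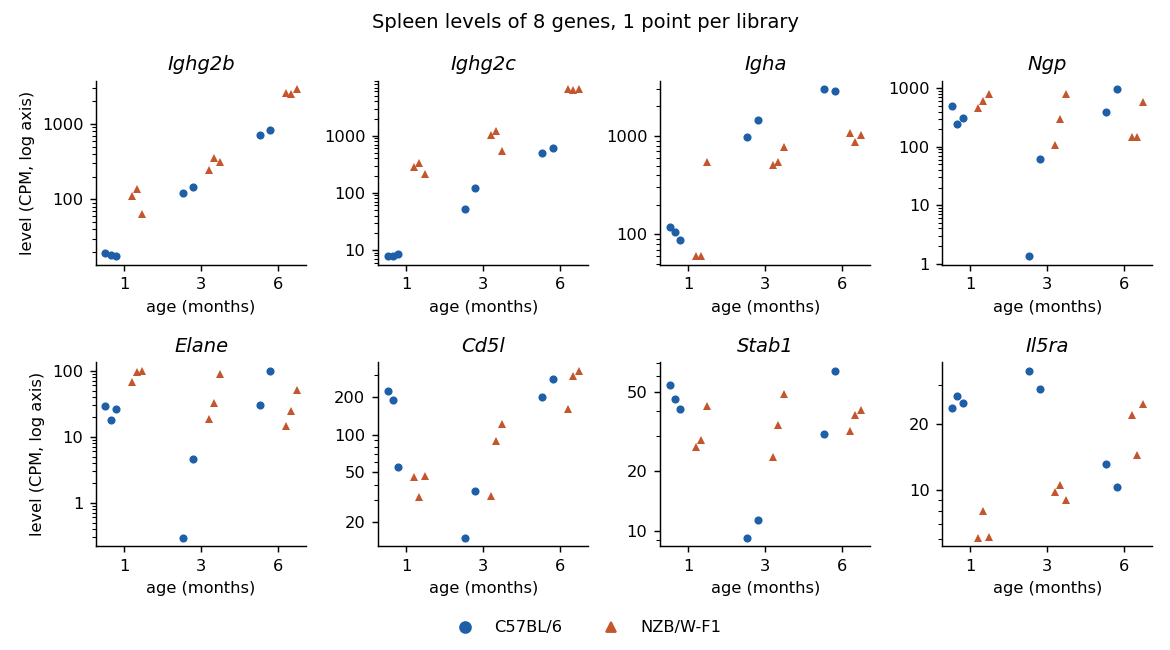
Each panel shows the spleen level of 1 gene in CPM on a log axis by age in months, with 1 point per library, circles for C57BL/6 and triangles for NZB/W-F1. Ighg2b, Ighg2c and Igha are higher at each later age in C57BL/6, while Ngp, Elane, Cd5l and Stab1 are lowest in its 3-month libraries and Il5ra is lowest in its 6-month libraries.

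Genes of the granules of developing neutrophils gave the 3 largest changes among the called genes on the log2(CPM + 0.5) scale, those of Ngp, Lcn2 and Ltf. These proteins are made in promyelocytes and myelocytes, before the cell matures, and the genes are nearly silent in blood neutrophils. Of 12 genes on the neutrophil precursor list 7 rose and 0 fell, all 12 were higher at an unadjusted p under 0.05, and the median log2 fold change was 4.46. Ngp (ENSMUSG00000032484, chromosome 9, 110419747 to 110423012, plus strand), neutrophilic granule protein, was at 386 and 958 CPM in the 6-month spleens, against 1.32 and 60.6 CPM in the 3-month spleens (log2 fold change 5.85, SE 1.25, limma adjusted p = 0.049). Elane (ENSMUSG00000020125, chromosome 10, 79886247 to 79888215, plus strand), neutrophil elastase of the primary granules, was at 30.4 and 98.6 CPM at 6 months, against 0.294 and 4.63 CPM at 3 months (log2 fold change 4.78, SE 0.85, adjusted p = 0.039). The ages did not overlap for either gene, which their selection required. The 3-month libraries themselves lay more than an order of magnitude apart.

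Secondary granule genes behaved alike. Lcn2 (ENSMUSG00000026822, chromosome 2, 32384633 to 32388252, minus strand), the iron-siderophore binder lipocalin 2, was at 91.6 and 217 CPM in the 6-month spleens, against 0.147 and 9.63 CPM in the 3-month spleens (log2 fold change 5.79, limma adjusted p = 0.04). Ltf (ENSMUSG00000032496, chromosome 9, 111019271 to 111042767, plus strand), lactoferrin, was at 200.3 and 509 CPM, against 0.588 and 32.4 CPM (5.74, adjusted p = 0.048). Chil3, a chitinase-like protein, Fcnb, a ficolin, and Ctsg, cathepsin G of the primary granules, rose too, by 4.44, 4.42 and 3.87. The members Mpo, the myeloperoxidase, Prtn3, proteinase 3, Camp, the cathelicidin peptide, Cebpe, their transcription factor, and Ms4a3 did not pass (limma adjusted p of 0.053 to 0.077), with log2 fold changes of 2.97 to 4.58. Summed over the 12, the 6-month libraries held 1210 and 2801 CPM, against 8.52 and 239 CPM in the 3-month libraries.

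The 1-month spleens had 1643, 769 and 1026 CPM of the same 12 genes, within or below the 6-month range, and it was the 3-month libraries that stood low. The list's calls came to 0 of 12 without 6-month replicate 2, 0 without 3-month replicate 1 and 11 without 3-month replicate 2, and to 0 in edgeR. Its median log2 fold change was 2.71 without 3-month replicate 1 and 6.04 without 3-month replicate 2.

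Promoters of 4 of these genes are shown because the genes moved together. Each runs from 250 bases before to 50 bases after the start site, from the RefSeq table of GRCm38.p6, and 11 of the 12 genes had one. Capitals mark TTGCNNAA, the core letters of sites bound by C/EBP factors, and GAGGAA, those bound by the myeloid factor PU.1, on either strand (as their reverse complements on the other).
Ngp, chr9:110419558-110419857, plus strand: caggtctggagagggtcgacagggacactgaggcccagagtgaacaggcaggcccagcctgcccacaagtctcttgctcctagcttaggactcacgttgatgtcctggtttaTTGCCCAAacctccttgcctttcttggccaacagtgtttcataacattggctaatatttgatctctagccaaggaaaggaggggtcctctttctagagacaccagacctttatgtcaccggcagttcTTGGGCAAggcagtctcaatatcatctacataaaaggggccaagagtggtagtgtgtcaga
Lcn2, chr2:32387690-32387989, minus strand: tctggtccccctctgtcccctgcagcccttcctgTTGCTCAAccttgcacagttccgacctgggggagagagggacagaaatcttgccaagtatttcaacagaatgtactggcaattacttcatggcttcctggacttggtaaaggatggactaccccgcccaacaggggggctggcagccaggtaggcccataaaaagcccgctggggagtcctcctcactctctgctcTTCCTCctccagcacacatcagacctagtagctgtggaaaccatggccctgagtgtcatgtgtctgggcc
Ltf, chr9:111019042-111019341, plus strand: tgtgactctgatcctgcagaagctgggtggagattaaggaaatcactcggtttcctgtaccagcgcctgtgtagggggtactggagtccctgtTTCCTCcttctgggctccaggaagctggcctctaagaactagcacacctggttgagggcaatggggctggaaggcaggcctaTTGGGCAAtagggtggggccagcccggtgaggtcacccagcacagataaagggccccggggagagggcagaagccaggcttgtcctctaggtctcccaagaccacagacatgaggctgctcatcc
Elane, chr10:79886062-79886361, plus strand: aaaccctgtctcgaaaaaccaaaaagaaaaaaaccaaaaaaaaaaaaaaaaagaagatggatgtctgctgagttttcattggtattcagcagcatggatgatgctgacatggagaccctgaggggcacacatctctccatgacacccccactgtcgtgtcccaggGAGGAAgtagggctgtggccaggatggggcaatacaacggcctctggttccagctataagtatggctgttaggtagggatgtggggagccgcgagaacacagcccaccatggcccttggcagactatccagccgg
TTGCNNAA occurred in 5 of the 11 promoters (Fcnb, Lcn2, Ltf, Ms4a3 and Ngp) and in 10.8% of all 32851 promoters of this length. GAGGAA occurred in 7 of the 11 (Ctsg, Elane, Lcn2, Ltf, Mpo, Ms4a3 and Prtn3) and in 28.28% of all. A match describes the letters and does not show that a factor binds there.

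Genes of mature neutrophils followed with smaller changes. Of 13 on the list 2 rose and 0 fell, 10 were higher at an unadjusted p under 0.05, and the median was 3.04. Mmp8, neutrophil collagenase, was at 22.3 and 44.8 CPM in the 6-month spleens, against 0.294 and 2.21 CPM in the 3-month spleens (log2 fold change 4.45, limma adjusted p = 0.04). Retnlg, a resistin-like protein of neutrophils, was at 27.7 and 54.3 CPM, against 1.03 and 2.68 CPM (4.16, adjusted p = 0.039). S100a9, a subunit of calprotectin and abundant in the cytosol of neutrophils, was at 888 and 1469 CPM, against 14.3 and 191 CPM (4.42, adjusted p = 0.053). Cxcr2, the receptor that draws mature neutrophils out of the marrow, was at 18.7 and 46.5 CPM, against 16 and 13.7 CPM (0.97, adjusted p = 0.26), and Il1b at 16.2 and 38.6 CPM, against 14.7 and 15.2 CPM. The list had 0 calls without 6-month replicate 2, 0 without 3-month replicate 1 and 0 in edgeR, with 4 without 6-month replicate 1.

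Off the lists, Cd177, a surface antigen of neutrophils, was at 30.2 and 86.4 CPM at 6 months, against 0.735 and 5.10 CPM at 3 months (log2 fold change 4.30, limma adjusted p = 0.045). Itgb2l, a beta-integrin-like gene of the same lineage, rose by 3.81 (adjusted p = 0.047). Ear1, of the eosinophil-associated ribonucleases, had 314 reads in the 6-month libraries against 0 in the 3-month libraries, at least 181-fold higher against a floor of 3 reads over the group. Its value is uncertain, since 73.65% of its 31-base words occur in another gene.

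Basophil, mast cell and eosinophil genes were low but moved the same way. Of 11 measured 3 rose and 0 fell, 8 were higher at an unadjusted p under 0.05, and the median was 2.24. Prss34, a basophil protease, was at 6.73 and 13.7 CPM in the 6-month spleens, against 0 and 1.24 CPM in the 3-month spleens (log2 fold change 3.44, limma adjusted p = 0.04). Cpa3, mast cell carboxypeptidase, was at 6.51 and 7.36 CPM, against 1.18 and 1.13 CPM (2.17, adjusted p = 0.039), and Fcer1a, the IgE receptor alpha chain, at 2.39 and 3.18 CPM, against 0.147 and 0.463 CPM (2.05, adjusted p = 0.044). The eosinophil granule genes Prg2 and Epx reached 73.2 and 210.1 CPM and 11.1 and 37.3 CPM at 6 months, against 3.09 and 5.71 CPM and 0.147 and 0.206 CPM at 3 months. They did not pass (adjusted p = 0.27 and 0.29), with changes of 4.72 and 4.95. The list had 0 calls without 6-month replicate 2, 0 without 3-month replicate 1, 1 without 3-month replicate 2, 5 without 6-month replicate 1 and 0 in edgeR.

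Red pulp macrophage genes were higher at 6 months almost throughout. Of 20 on the list 2 rose and 0 fell, 17 were higher and 0 lower at an unadjusted p under 0.05, and the median log2 fold change was 2.12. Cd5l, a secreted scavenger protein that keeps macrophages alive, was at 199 and 277 CPM in the 6-month spleens, against 15 and 35.7 CPM in the 3-month spleens (log2 fold change 3.31, SE 0.67, limma adjusted p = 0.044). Fcna, a ficolin of macrophages, was at 174 and 247 CPM, against 23.7 and 29.8 CPM (2.94, adjusted p = 0.041). The libraries of the ages did not overlap for 19 genes higher at 6 months (27.8% of all genes) and for 1 lower, Timd4, at 67.7 and 75.9 CPM against 81.1 and 93.1 CPM.

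Complement C1q, which tags debris for uptake and is made by macrophages, was close to the threshold. C1qa, its A chain, was at 266 and 356 CPM in the 6-month spleens, against 103 and 111 CPM in the 3-month spleens (log2 fold change 1.52, limma adjusted p = 0.053). Members tied to iron recycling missed the threshold with large changes. Slc40a1, the iron exporter ferroportin, was at 746 and 1199 CPM in the 6-month spleens, against 112 and 239 CPM in the 3-month spleens (log2 fold change 2.53, limma adjusted p = 0.087). Hmox1, the haem oxygenase, was at 577 and 1099.6 CPM, against 161 and 162 CPM (2.30, adjusted p = 0.1). Spic, the transcription factor of these macrophages, differed less, at 108 and 147 CPM against 43.9 and 86.7 CPM (1.02, adjusted p = 0.3). Over the 20 genes the sums were 4348 and 7051 CPM at 6 months, against 1228 and 1651 CPM at 3 months, with 6241, 5619 and 2557 CPM at 1 month. The 3-month libraries were again the lowest of the 3 ages. The list had 0 calls without 6-month replicate 2, without either 3-month replicate and in edgeR.

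Of 16 iron handling genes 1 rose and 0 fell, with 10 higher at an unadjusted p under 0.05 and a median of 1.09. It was Hp, haptoglobin, which binds free haemoglobin, at 38.5 and 94.3 CPM in the 6-month spleens, against 3.09 and 7.52 CPM in the 3-month spleens (log2 fold change 3.50, limma adjusted p = 0.039). Haptoglobin is also a protein of developing neutrophils. The ferritin chain Ftl1 was at 306 and 331 CPM, against 197 and 183 CPM (0.74, adjusted p = 0.1). The call of Hp was lost without 6-month replicate 2 and without 3-month replicate 1. Red cell precursors did not separate the ages, with 0 of 37 genes called, 0 at an unadjusted p under 0.05 and a median of 0.61. They summed to 36854 and 11593 CPM at 6 months, against 9011 and 24663 CPM at 3 months, so replicates of 1 age differed more than the ages did.

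Of 16 endothelial genes 1 rose and 0 fell, with 10 higher and 0 lower at an unadjusted p under 0.05 and a median of 1.31. The gene called was Stab1, the scavenger receptor stabilin-1 of sinus endothelium and macrophages, at 30.6 and 63.7 CPM in the 6-month spleens, against 9.26 and 11.4 CPM in the 3-month spleens (log2 fold change 2.05, SE 0.36, limma adjusted p = 0.039). It overlaps Nt5dc2, and the labels do not say whether the libraries kept the strand. Stab2, its sister on sinus endothelium, was at 104 and 244 CPM, against 32.2 and 39.0 CPM (2.16, adjusted p = 0.078), and Kdr, the main VEGF receptor, at 42.6 and 81.4 CPM, against 20.9 and 21.7 CPM (1.45, adjusted p = 0.058). Pecam1, which all endothelium and many leucocytes carry, overlapped at 129 and 181 CPM against 164 and 129 CPM. Madcam1, the addressin of marginal sinus lining, lay the other way at 13.8 and 10.5 CPM, against 53.6 and 18.9 CPM (-1.37, adjusted p = 0.3). The list had 0 calls without 6-month replicate 2, without either 3-month replicate, and 7 without 6-month replicate 1. Of 17 platelet and megakaryocyte genes 0 were called, with 14 higher and 0 lower at an unadjusted p under 0.05 and a median of 1.34. Of 21 fibroblast and reticular stroma genes 0 were called, with 7 higher and 3 lower and a median of 1.02. The 3 lower were Ccl19, Ccl21a and Cxcl13, chemokines of the white pulp that attract T and B cells, with changes of -1.48, -1.69 and -1.46. The values of Ccl19 and Ccl21a are uncertain, since 58.77% and 80.6% of their 31-base words occur in another gene. Cxcl13 was at 193 and 114 CPM in the 6-month spleens, against 442 and 379 CPM in the 3-month spleens (limma adjusted p = 0.21).

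Single members of other lists completed the calls. Cd14, the lipopolysaccharide co-receptor of monocytes and macrophages, was at 20.1 and 29.1 CPM in the 6-month spleens, against 5.44 and 6.80 CPM in the 3-month spleens (log2 fold change 1.91, limma adjusted p = 0.04), the 1 call among 11 monocyte genes. Ccl6, a chemokine of myeloid cells, was at 58.3 and 72.6 CPM, against 9.11 and 9.78 CPM (2.72, adjusted p = 0.028), and was 1 of the 23 genes that edgeR also called. Klf9, a transcription factor induced by glucocorticoids, was at 25.5 and 38.4 CPM, against 6.61 and 8.13 CPM (2.02, adjusted p = 0.041). No call of these 3 held without 6-month replicate 2 or without 3-month replicate 1.

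The fallers were 2. Il5ra (ENSMUSG00000005364, chromosome 6, 106710357 to 106749037, minus strand), the alpha chain of the interleukin-5 receptor, found on B-1 cells, plasma cells and eosinophils, was at 13.1 and 10.4 CPM in the 6-month spleens, against 34.7 and 28.6 CPM in the 3-month spleens and 23.5 to 26.6 CPM at 1 month. The 6-month libraries lay below all 5 younger ones. Lack of overlap with the 3-month libraries held for 29.6% of all genes in the lower direction and was required by the selection of Il5ra. Its log2 fold change was -1.39 (SE 0.25, limma adjusted p = 0.039). It missed the threshold in edgeR (adjusted p = 0.052), without 6-month replicate 2 (limma adjusted p = 0.633) and without either 3-month replicate (0.332 and 0.0765). The other, 4921525O09Rik, was near the floor, at 0.326 and 0.334 CPM, against 1.76 and 1.90 CPM.

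Further low genes with the smallest p did not pass. Il12a, the p35 chain of interleukin-12, was at 4.02 and 6.02 CPM in the 6-month spleens, against 13.8 and 11.6 CPM in the 3-month spleens (log2 fold change -1.28, limma adjusted p = 0.053). Il2ra, the interleukin-2 receptor alpha chain of regulatory and activated T cells, was at 8.79 and 6.02 CPM, against 21.6 and 17.1 CPM (-1.34, adjusted p = 0.064). Ms4a4c, an interferon-responsive membrane protein, was at 68.9 and 58.7 CPM, against 161 and 127 CPM (-1.16, adjusted p = 0.077). Hcrtr2, Ddx25, St8sia1 and Trim12a had changes of -1.38, -1.58, -1.2 and -1.10 (adjusted p of 0.055 to 0.070). These 7 were picked from genes whose libraries did not overlap between the ages, so their lack of overlap is no result. It held for 29.6% of all genes in the lower direction.

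The general T and B cell lists had no call. Of 18 T cell genes 15 were lower and 0 higher at an unadjusted p under 0.05, and the median was -1.03. Trbc2, a constant region of the T cell receptor beta chain, was at 74.7 and 40.6 CPM in the 6-month spleens, against 187 and 154 CPM in the 3-month spleens (log2 fold change -1.62, limma adjusted p = 0.11), and Cd3g, a chain of the receptor complex, at 70.7 and 46.6 CPM against 151 and 136 CPM (-1.31, adjusted p = 0.12). Of 16 B cell genes 11 were lower and 0 higher at an unadjusted p under 0.05, with a median of -0.96. Ms4a1, the CD20 antigen of B cells, was at 769 and 621 CPM in the 6-month spleens, against 1338 and 1521 CPM in the 3-month spleens (log2 fold change -1.05, limma adjusted p = 0.15). T cell sums were 1221 and 866 CPM at 6 months, against 2423 and 1959 CPM at 3 months and 1167 to 1426 CPM at 1 month. For B cells they were 4892 and 4348 CPM, against 10257 and 7817 CPM, with 5300 to 6306 CPM at 1 month, so both lists were highest at 3 months. Levels of all lists are shares of 1 total per library.

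Of 10 naive T cell genes 0 were called, with 1 higher and 7 lower at an unadjusted p under 0.05 and a median log2 fold change of -0.77. Lef1, a transcription factor of naive T cells, was at 51.6 and 32.3 CPM in the 6-month spleens, against 145 and 91.4 CPM in the 3-month spleens (log2 fold change -1.49, limma adjusted p = 0.13). Of 9 regulatory T cell genes 0 were called, with 0 higher and 4 lower at an unadjusted p under 0.05 and a median log2 fold change of -1.01. Tnfrsf18, the receptor GITR, was at 6.84 and 5.52 CPM in the 6-month spleens, against 17.2 and 15 CPM in the 3-month spleens (log2 fold change -1.32, limma adjusted p = 0.13). Both genes were lower in each 6-month library than in either 3-month library. That held for 29.6% of all genes, and both were named for their small p, so it is no result. Of 14 natural killer cell genes 0 were called, with 6 higher and 0 lower at an unadjusted p under 0.05 and a median log2 fold change of 0.69. Gzma, the protease granzyme A of cytotoxic granules, was at 30.0 and 46.3 CPM in the 6-month spleens, against 11 and 6.59 CPM in the 3-month spleens (log2 fold change 2.06, limma adjusted p = 0.077). Effector and memory T cell genes had 0 of 15 called, 0 higher and 1 lower at an unadjusted p under 0.05 and a median of -0.05, and age-associated B cell genes 0 of 8 called, 1 higher and 0 lower and a median of 0.10. Of 36 interferon-stimulated genes 0 were called, with 0 higher and 6 lower at an unadjusted p under 0.05 and a median log2 fold change of -0.35. Of 11 MHC class II genes 0 were called, with 0 higher and 3 lower at an unadjusted p under 0.05 and a median log2 fold change of -0.56. Of 14 MHC class I genes 0 were called, with 0 higher and 3 lower at an unadjusted p under 0.05 and a median log2 fold change of -0.64.

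Transcripts of the mitochondrial genome were among the lowest. Of 13 on the list 8 were measured. All 8 measured were lower at an unadjusted p under 0.05 and 0 passed, with a median of -1.54. The values of mt-Co1 and mt-Nd3 are uncertain, since 63.89% and 98.11% of their sequence words occur in another gene. How far this affects the sums was not tested. Sums over the 8 measured genes were 26034 and 20236 CPM at 6 months, against 91400 and 50859 CPM at 3 months and 17120 to 24912 CPM at 1 month. The 30 nuclear genes of oxidative phosphorylation had a median of -0.02 with 0 called. In kidney the same mitochondrial sum was 82417 to 88634 CPM at 6 months, against 115758 to 148307 CPM at 3 months, and in brain 33768 to 44144 CPM, against 33074 to 43330 CPM. Its part in the results was not tested.

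Adipocyte genes, which mark fat attached to the organ, moved with age too. Of 12 measured 9 were higher at an unadjusted p under 0.05 and 0 were called, with a median of 3.82. They summed to 825 and 538 CPM in the 6-month libraries, against 82.7 and 55.9 CPM in the 3-month libraries and 179, 100.4 and 745 CPM at 1 month. Adipoq, adiponectin, was at 44.4 and 25.2 CPM, against 2.06 and 0.978 CPM, and Lep, leptin, at 4.34 and 2.17 CPM, against 0 and 0 CPM. Both defining genes were present at 6 months, and their part in the called genes was not tested.

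**Figure D3:**
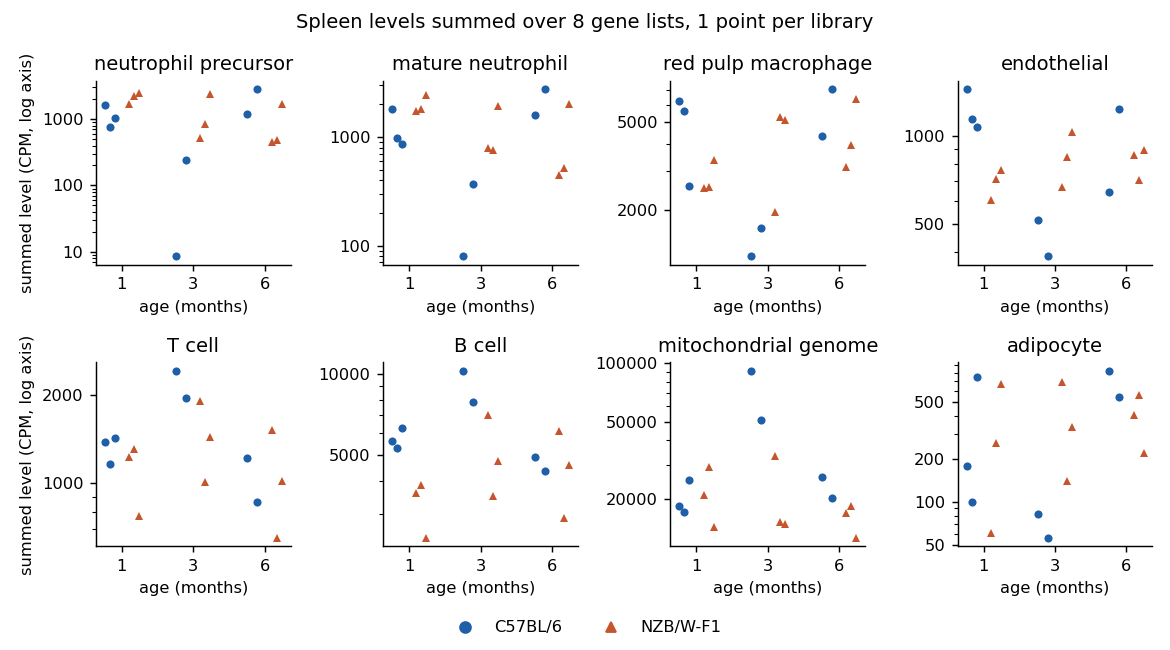
Each panel gives the summed level of the measured genes of 1 list in CPM on a log axis by age in months, 1 point per spleen library, circles for C57BL/6 and triangles for NZB/W-F1. In C57BL/6 the 3-month libraries are the lowest for the neutrophil, red pulp macrophage, endothelial and adipocyte lists and the highest for T cells, B cells and the mitochondrial genome, for example 8.52 and 239 CPM of the neutrophil precursor list.

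**Figure D4:**
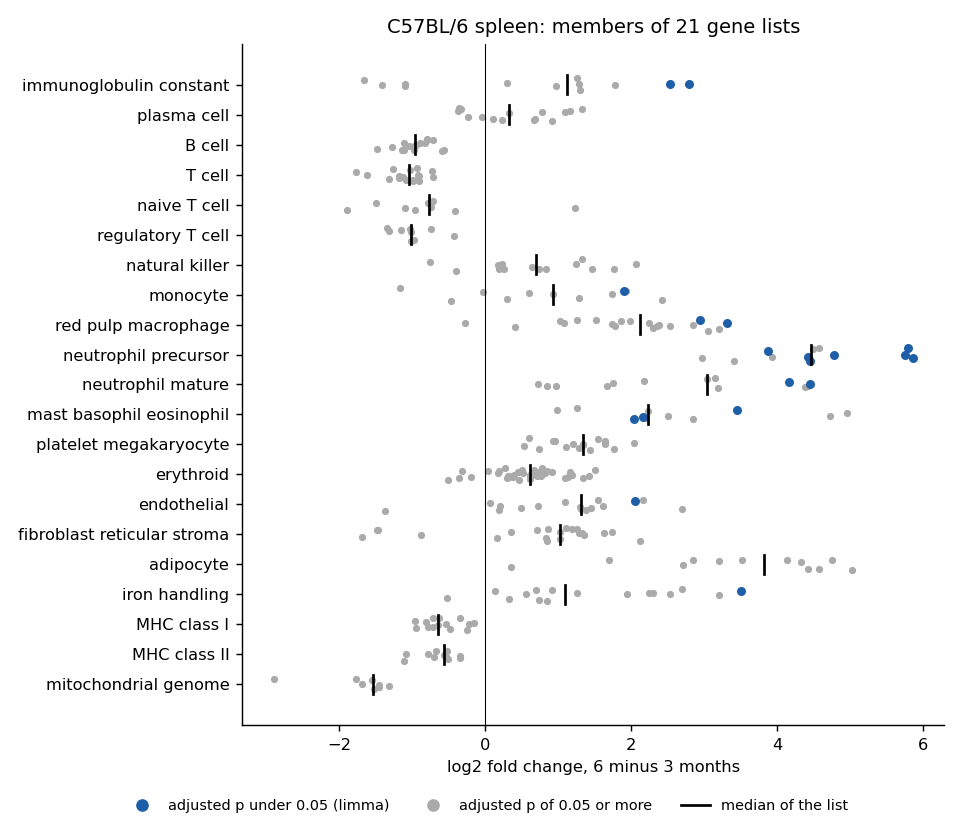
Each row is 1 of 21 gene lists, each point a measured member at its log2 fold change, 6 minus 3 months, in C57BL/6 spleen, blue where limma's adjusted p is under 0.05, and the black bar the median of the list. Neutrophil precursor genes lie furthest to the right with a median of 4.46, and the mitochondrial genome furthest to the left with -1.54.

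The 1-month libraries place these changes in time. The 115 risers had a median log2 fold change of 2.32 for 6 against 3 months, of -2.01 for 3 against 1 month and of 0.31 for 6 against 1 month. These comparisons share libraries and are given side by side only. From 1 to 6 months 24 genes passed higher (0.159%) and 4 lower (0.0265%). Ighg2b and Ighg2c had 6 against 1 month log2 fold changes of 5.35 and 6.03, and Ngp one of 0.87. For Ngp the 6-month libraries of 386 and 958 CPM enclosed the highest of the 1-month libraries, which spanned 243 to 491 CPM.

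NZB/W-F1 spleens, which share no library with this comparison, were set beside it over the same ages. In them 78 genes rose (0.516%) and 8 fell (0.0529%), and 7 of the 115 C57BL/6 risers were among the 78: Ighg2b, Ighg2c, Ighv1-82, Ighv5-17, Ighv1-61, the chemokine Ccl8 and the paraoxonase Pon3. That is 6.09% of the C57BL/6 risers and 8.97% of those of NZB/W-F1. Ighg2b changed by 2.53 in C57BL/6 and by 3.12 in NZB/W-F1, and Ighg2c by 2.79 and 2.87. Their listed levels were not alike, for Ighg2c averaged 554 CPM in C57BL/6 at 6 months and 6443 ± 57.6 CPM in NZB/W-F1 (SD, n = 3). The processing notes name the build mm10 alone. Whether the alleles of both strains at this locus were counted alike on it was not tested. Across the 115 risers the median change was 2.32 in C57BL/6 and 0.05 in NZB/W-F1. With the 3 libraries rich in pancreatic genes left out, 10 genes rose and 1 fell in NZB/W-F1, and 3 of the 115 were among the 10.

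The neutrophil precursor list had a median of 4.46 in C57BL/6 and of -0.45 in NZB/W-F1, where 0 of 12 passed. Its sums in NZB/W-F1 ranged over 447 to 1663 CPM at 6 months, against 516 to 2349 CPM at 3 months, and overlapped. Chil3 was listed at 0 in every NZB/W-F1 spleen library of 6, 3 and 1 months, so its values there hold no information on age. The red pulp macrophage list had medians of 2.12 in C57BL/6 and 0.09 in NZB/W-F1, where 0 of 20 passed. Of its 2 genes called in C57BL/6, Cd5l was higher at 6 months in NZB/W-F1 too. It was at 159 to 324 CPM there, against 32.4 to 122 CPM at 3 months. Fcna overlapped, at 56.3 to 112 CPM against 38.9 to 145 CPM. With the 3 libraries rich in pancreatic genes left out, the NZB/W-F1 medians were -1.09 for neutrophil precursors and -0.02 for red pulp macrophages. The interaction then passed for 0 genes, with 1141 at an unadjusted p under 0.05 in limma. Tested directly, the strain by age interaction passed for 0 genes in limma and 0 in edgeR, with 1521 (10.1%) and 1538 (10.2%) at an unadjusted p under 0.05 and a smallest limma adjusted p of 0.074, so no change was shown to differ between strains. That smallest value was for Il5ra, which changed by -1.39 in C57BL/6 and by 0.98 in NZB/W-F1, where it was at 14.4 to 24.6 CPM at 6 months, against 9.0 to 10.6 CPM at 3 months. Without 3-month C57BL/6 replicate 2 the interaction passed for 14 genes, and without 6-month C57BL/6 replicate 1 or 2 for 2 and 1.

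**Figure D5:**
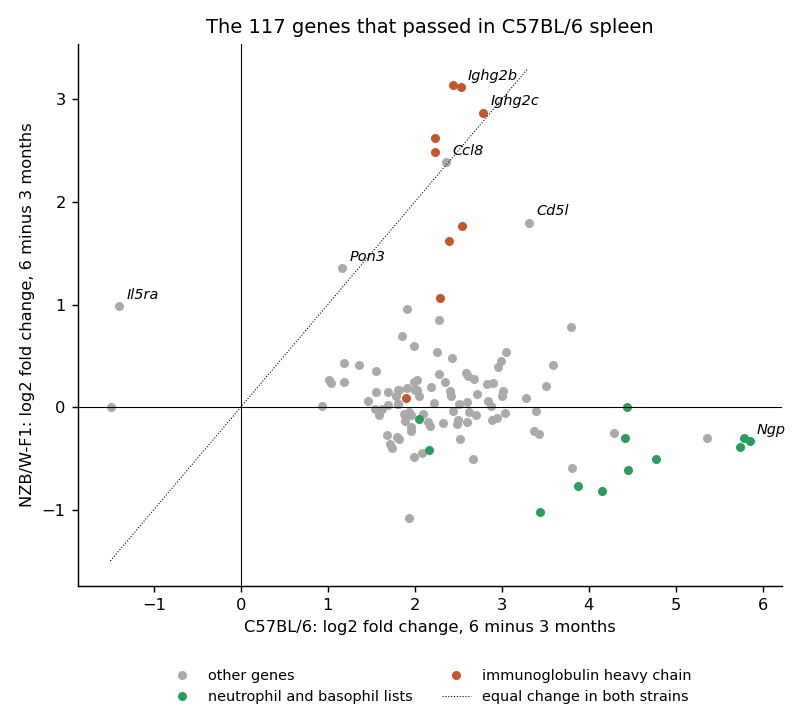
Each point is 1 of the 117 genes that passed in C57BL/6 spleen, with its log2 fold change, 6 minus 3 months, in C57BL/6 on the x axis and in NZB/W-F1 on the y axis, and the dotted line marks equal change. Immunoglobulin heavy chain genes such as Ighg2b (2.53 and 3.12) lie near the line, while neutrophil and basophil genes such as Ngp (5.85 and -0.33) lie near or below 0 in NZB/W-F1.

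C57BL/6 kidneys and brains of the same ages were compared with 3 libraries a group. Of the 115 risers 84 were measured in kidney and 79 in brain, and limma called 0 of them in either organ, with median log2 fold changes of 0.22 and 0.01. Over all genes 1 of 14373 passed in kidney (0.00696%), with 2359 (16.4%) at an unadjusted p under 0.05. In brain 0 of 14895 passed, with 986 (6.62%) at an unadjusted p under 0.05. Ighg2b averaged 5.41 CPM in 6-month kidneys and 1.93 CPM in 3-month kidneys (log2 fold change 1.38, limma adjusted p = 0.22), and Ighg2c 4.65 CPM and 1.00 CPM (1.65, adjusted p = 0.25). Stab1 averaged 43.6 CPM in 6-month kidneys and 43.1 CPM in 3-month kidneys.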

How the data were processed

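RNA-seq of whole spleen was measured in 16 libraries. Per the labels' protocols RNA was taken with TRIzol and libraries were made with the TruSeq v2 kit. The submitters' processing notes name STAR 2.6, HTSeq, edgeR and the build mm10. The deposited signal is CPM scaled by normalization factors, where the plan had assumed plain CPM. Whole reads were recovered from the authors' values within a tolerance of 0.01 (100% of values), giving 5268102 to 19418394 reads a library. Floors cover counting error only.

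Genes (15115 of 15122 matched to GENCODE M21, GRCm38) with a CPM of at least 1 in at least 2 libraries were fitted with limma 3.58.1 (R 4.3.3, trended eBayes) on log2(CPM + 0.5), with 6 group means over 16 libraries, two-sided, with Benjamini-Hochberg adjustment at 0.05. This pseudocount understates changes of low genes. In 3-month replicate 1 Lcn2, Elane, Mmp8, Prss34, Fcer1a and Epx lay below the floor of 3 reads, and Ccl8 and Cyp21a1 at it. The size of their changes therefore depends on the pseudocount. Kidney and brain were fitted alike. The alternatives were edgeR 4.0.16, median-of-ratios scaling, other filters, a pseudocount of 0.1, fewer libraries, a replicate block, leaving out each library and, chosen after seeing the data, leaving out the 3 libraries richest in pancreatic genes. Replicates of an age differed by more than sampling noise (chi-square per gene of 33.3 at 6 months and 40.6 at 3 months). Named genes had an adjusted p under 0.05, a mean of at least 5 CPM and no overlap between ages, the 12 largest each way, passing over predicted genes and receptor segments. Up to 5 genes with the smallest p per list were named as well, and, where few fell, uncalled genes up to 8. Genes outside this rule were chosen after their values were seen. A gene is called uncertain where 50% or more of its 31-base words occur in another gene. Members, lists and tests were chosen with earlier results of these data known.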

Additional observations from a re-analysis of the deposited data

How the results depend on the processing

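The count of genes called depended on the setting. The 115 higher became 23 in edgeR, 72 among genes with a mean of at least 5 CPM, 185 with a pseudocount of 0.1, 0 with only the 4 compared libraries and 1 with only the 7 C57BL/6 libraries, and 0 with the 3 libraries rich in pancreatic genes left out. The 2 lower became 0, 1, 0, 0 and 0 in edgeR, at the mean of 5 CPM, with the 4 libraries, with the 7 and without those 3. Leaving out 1 library gave 0 to 303 higher, 0 to 15 lower and 0 to 14 genes for the interaction. Where that left 1 library of an age, it was assumed to vary like the others. With median-of-ratios scaling 155 genes passed, those 117 among them. Every one of the 117 that was tested kept its sign in all 14 alternatives. Fewer libraries leave fewer degrees of freedom, and the cause of these differences was not tested.

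Over genes, the replicate 1 minus 2 differences of the 2 ages had r = -0.19 (2 pairs). With 1 difference an age this cannot show whether same-numbered libraries share more than a number. With a replicate block 391 genes were higher and 39 lower. With the 6-month numbers crossed, chosen after seeing the data, 219 were higher and 3 lower. With 2 libraries an age, a miss of the threshold is not evidence that a gene was unchanged.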

Other observations

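Among the 94 risers on no list, a few single genes known from sinus endothelium or stroma are given as values. They were chosen after their values were seen and no theme was tested. Gpr182, a chemokine-scavenging receptor of sinusoids, was at 25.2 and 64.0 CPM in the 6-month spleens, against 5.0 and 4.89 CPM in the 3-month spleens (log2 fold change 2.90, limma adjusted p = 0.028). Npnt, the matrix protein nephronectin, was at 76.6 and 223 CPM, against 11.3 and 13.2 CPM (3.37, adjusted p = 0.046). Gja1, the gap junction protein connexin 43, was at 93.6 and 155 CPM, against 32.5 and 31.8 CPM (1.89, adjusted p = 0.028). The Wnt pathway genes Fzd1, a receptor, and Sfrp1, a secreted antagonist, rose by 2.6 and 2.48, and the ligand Wnt2 by 1.81. In NZB/W-F1 the changes of Gpr182, Npnt and Gja1 were 0.24, -0.23 and -0.14, and 0 of the 3 passed there. Gpr182 overlaps Zbtb39, with strand not stated. These calls, too, were lost without 6-month replicate 2 or 3-month replicate 1.

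A few genes known from steroid synthesis, chosen in the same way, were Star, Cyp21a1 and Mrap. Star, which carries cholesterol into mitochondria, was at 89.1 and 152 CPM in the 6-month spleens, against 24.4 and 24.8 CPM in the 3-month spleens and 72.8 to 89.2 CPM at 1 month (log2 fold change 2.22, limma adjusted p = 0.04). Cyp21a1, steroid 21-hydroxylase, was at 4.56 and 8.53 CPM, against 0.441 and 0.309 CPM (2.95, adjusted p = 0.028), with 36.94% of its 31-base words in another gene. Mrap, an accessory protein of the ACTH receptor that fat also makes, was at 6.73 and 6.69 CPM, against 0.735 and 0.669 CPM (2.58, adjusted p = 0.04). In NZB/W-F1 the changes of Star, Cyp21a1 and Mrap were 0.04, 0.39 and 0.33.

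Clec4g, a lectin of sinusoidal endothelium, overlaps Gm16553, with strand not stated. Clec4g differed from most of the risers at the youngest age. It was at 18.7 and 25.4 CPM in the 6-month spleens, against 6.17 and 4.48 CPM in the 3-month spleens and 1.96 to 3.54 CPM at 1 month, with the 3 ages not overlapping (limma adjusted p = 0.028 for 6 against 3 months). Ccl8, a chemokine made by macrophages, was at 3.58 and 4.68 CPM at 6 months, against 0.441 and 0.36 CPM at 3 months and 0.113 to 0.686 CPM at 1 month. Its change was 2.35 in C57BL/6 and 2.39 in NZB/W-F1, and it passed in both strains.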
